A study of Mus musculus with 8 samples.

Results

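The 9 genes described here encode the E2F transcription factors E2f1, E2f2, E2f3, E2f4, E2f7 and E2f8 and the pocket proteins Rb1, Rbl1 (p107) and Rbl2 (p130). They were taken by gene symbol from the 25078 genes of the deposited tables, and all 9 were among the 12428 genes that passed the filter on low counts. RNA was sequenced from donor T cells of the mouse spleen on day 6 after allogeneic hematopoietic cell transplantation (HCT), in 4 groups of 2 libraries: CD4 T cells from WT or from STAT3KO donors, and CD8 T cells from WT or from STAT3KO donors. WT donors were C57BL/6 mice, and STAT3KO donors were C57BL/6 mice with a floxed Stat3 gene and a Cre driven by Cd4 regulatory sequences, which deletes in T cells of both lineages. All groups shared the same host, lethally irradiated BALB/c mice that also received T cell-depleted marrow from WT C57BL/6 mice, so that cells of the host and of the marrow other than the sorted donor T cells were not STAT3 deficient. Donor cells were sorted as H-2Kb+TCRβ+CD4+ or CD8+, and per the study's methods each library pooled the cells of 3 recipients. No ages were given, and p-values measure the spread between such pools.

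E2F factors bind DNA as dimers with a DP protein and switch genes of DNA replication and of the cell cycle. E2f1, E2f2 and E2f3 are known mainly as activators, E2f4 works mostly in repressing complexes with pocket proteins, and E2f7 and E2f8 are atypical repressors that bind without DP or pocket proteins. Pocket proteins hold E2F factors in check until cyclin-dependent kinases phosphorylate them. Rbl2 prevails in resting lymphocytes, while Rbl1 and E2f1 are themselves E2F target genes that are high in dividing cells.

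The libraries matched their labels. Levels are given as CPM, each gene's counts relative to the library's total after scaling by the trimmed mean of M values (TMM). Stat3 lay at 428 to 436 CPM in the 4 WT libraries and at 119.7 to 143 CPM in the 4 STAT3KO libraries. Its log2 fold change was -1.63 in CD4 and -1.72 in CD8. Totals ran from 20171396 to 23282757 counts, so that 3 counts were worth 0.129 to 0.149 CPM and every member was far above that level. Cd4 lay at 1361 CPM or more in CD4 libraries and at 1.04 to 8.16 CPM in CD8 libraries, and Cd8a at 819 or more in CD8 libraries and at 1.70 to 16 in CD4 libraries. In each group the marker of the other lineage and the summed level of 7 macrophage and monocyte genes were higher in replicate 2 (21.7 to 55.3 CPM in the replicate 1 libraries and 71.8 to 139.5 CPM in the replicate 2 libraries for the macrophage sum), and their part in the results was not tested. The sums of B cell genes were 1.14 to 13.3 CPM, of erythroid genes 1.23 to 8.50 CPM and of neutrophil genes 2.36 to 15.6 CPM. All 4 globin genes had 0 counts in every library, also in STAT3KO CD8 replicate 2, where Alas2 had 106, and why was not tested. The marker sums, unlike the values of single genes, are relative to the library's total without TMM scaling. Of these marker lists 1 gene was called between genotypes, the B cell gene Cd79b in CD4, at 0.898 and 1.23 CPM in WT and 2.10 and 2.47 CPM in STAT3KO.

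Some members carry E2F letters in their own promoters. Windows of 250 bases before to 50 after the annotated start (RefSeq, GRCm38.p6) were given for 7 of the 9 members, all except E2f4 and Rb1, and were searched on both strands for TTTCGCGC, TTTGGCGC, TTTCCCGC and TTTGCCGC. A match was found for 4 members, Rbl1, E2f7, E2f2 and E2f3, against 2.61% of the 27025 genes with a window. E2f2 and E2f3 each had a second window without a match, so that 4 of 9 member windows held one, against 2.26% of all windows. The windows of E2f8 and Rbl2 held none of these letters. The window given for E2f1 held none either, but its start lies 466 bases inside the gene as the files place it, so the outer end of E2f1 was not searched. The windows of Rbl1 and E2f7, members called in CD4 T cells, and those of the activators E2f2 and E2f3, not called there, are shown 5′ to 3′ on the gene's strand with the match in capitals. That of Rbl1 is chr2:157204485-157204784 (minus strand, match 18 to 11 bases before the start), that of E2f7 chr10:110745189-110745488 (plus strand, 198 to 191 bases before), that of E2f2 chr4:136172024-136172323 (plus strand, from 39 to 46 bases after) and that of E2f3 chr13:29986014-29986313 (minus strand, 11 to 4 bases before). In E2f7 and E2f3 the capitals are the reverse complement of TTTCCCGC. A match describes the letters in the window only.
Rbl1: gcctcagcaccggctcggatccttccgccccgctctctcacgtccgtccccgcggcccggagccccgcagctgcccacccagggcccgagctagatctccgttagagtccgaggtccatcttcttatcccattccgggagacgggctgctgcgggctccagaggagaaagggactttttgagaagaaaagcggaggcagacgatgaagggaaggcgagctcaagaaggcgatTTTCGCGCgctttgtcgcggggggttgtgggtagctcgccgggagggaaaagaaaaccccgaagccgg
E2f7: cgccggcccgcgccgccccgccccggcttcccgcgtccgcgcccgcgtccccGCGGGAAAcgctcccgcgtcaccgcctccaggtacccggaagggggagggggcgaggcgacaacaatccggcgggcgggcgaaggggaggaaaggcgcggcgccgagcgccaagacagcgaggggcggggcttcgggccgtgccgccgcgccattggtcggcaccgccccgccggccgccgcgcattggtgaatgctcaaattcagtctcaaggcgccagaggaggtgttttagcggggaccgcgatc
E2f2: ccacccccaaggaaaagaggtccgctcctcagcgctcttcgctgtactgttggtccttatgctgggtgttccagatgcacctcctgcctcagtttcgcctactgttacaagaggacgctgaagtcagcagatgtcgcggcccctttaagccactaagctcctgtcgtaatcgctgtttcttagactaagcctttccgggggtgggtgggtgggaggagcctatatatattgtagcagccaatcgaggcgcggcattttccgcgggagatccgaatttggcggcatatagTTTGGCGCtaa
E2f3: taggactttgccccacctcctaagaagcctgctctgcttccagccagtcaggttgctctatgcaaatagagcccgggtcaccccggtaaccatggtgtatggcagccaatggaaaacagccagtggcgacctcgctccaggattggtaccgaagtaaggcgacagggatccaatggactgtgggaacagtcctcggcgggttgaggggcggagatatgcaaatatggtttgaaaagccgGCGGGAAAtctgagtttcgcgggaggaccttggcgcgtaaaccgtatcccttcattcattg

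Per exon length, E2f4 was the most abundant of the E2F members in every library. In RPKM as deposited, which relates the reads of a gene to its exon length and to the library's total, the group means of E2f4 were 50.2 and 51.0 for CD4 (WT, then STAT3KO) and 63.8 and 57.4 for CD8, and means below follow this order. E2f2 followed at 21.7, 25.8, 34.0 and 33.1 RPKM, with no overlap with E2f4 in any library of the same group. Of the members E2f8 came next, at 5.83, 11.7, 21.7 and 22.4 RPKM, although its 2 WT CD4 libraries (7.91 and 3.76 RPKM) spanned those of E2f3 (5.09 and 4.26). E2f1, E2f3 and E2f7 had the lowest mean RPKM of the members in each group, with means of 3.05, 5.71, 8.81 and 8.03 for E2f1, 4.67, 5.39, 5.83 and 5.62 for E2f3, and 1.67, 3.09, 5.50 and 5.00 for E2f7. E2f1 thus lay below E2f3 in both WT CD4 libraries and above it in all 6 others. Among the pocket protein genes Rbl2 was the highest in every library, with group means between 39.0 and 51.1 RPKM, and the order of Rb1 and Rbl1 differed between the groups, as described below.

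Of the 9 members, 4 were called between STAT3KO and WT CD4 T cells (edgeR's quasi-likelihood test, Benjamini-Hochberg adjusted p under 0.05 over all genes tested). E2f1, E2f7 and Rbl1 rose and Rb1 fell. Over all genes 6.54% were called higher and 5.08% lower in this comparison. The members had a median log2 fold change of 0.27, and all genes one of 0.017. Both STAT3KO libraries lay outside the range of both WT libraries for 7 of the 9 members, as they did for 53.5% of all genes. In bulk libraries fewer cells of a type and less RNA per cell cannot be told apart.

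**Figure D1:**
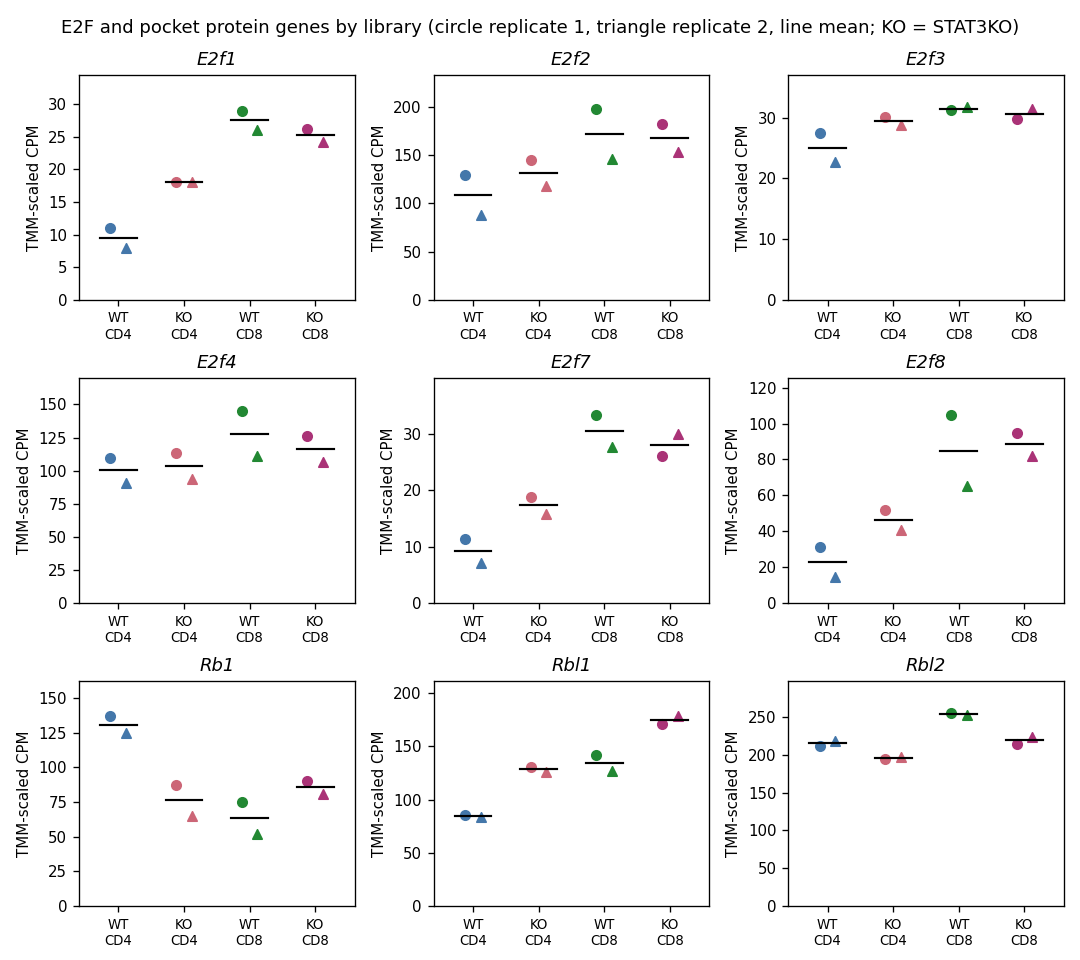
TMM-scaled CPM (vertical axes, from 0) of the 9 members in the 4 groups, with circles for replicate 1, triangles for replicate 2 and lines for the mean. Both WT CD4 libraries lay below all others for E2f1, E2f3, E2f7, E2f8 and Rbl1, and E2f2 and E2f4 had their lowest mean there. Rb1 was highest in WT CD4, at 136.6 and 124.6 CPM.

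E2f1, an activator of replication genes, is at chr2:154559400-154569892 on the minus strand (mm10). Its 2 WT CD4 libraries held 11.0 and 7.94 CPM, and its STAT3KO CD4 libraries 18.0 and 18.1 CPM. The STAT3KO CD4 libraries lay above both WT CD4 libraries and below all 4 CD8 libraries. The log2 fold change was 0.93 (SE 0.17, edgeR adjusted p = 0.0130), a rise of 1.91-fold. Without STAT3KO CD4 replicate 1 the adjusted p was 0.0711, and without replicate 2 it was 0.0732, with the fold change kept at 0.93.

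E2f2 (chr4:136172274-136196056, plus strand) and E2f3 (chr13:29906575-29986063, minus strand) are the other activators. E2f2 had 129.8 and 87.9 CPM in WT CD4 and 144.4 and 118.4 CPM in STAT3KO CD4, and the groups overlapped. Its log2 fold change was 0.27 (95% confidence interval -0.24 to 0.79, edgeR adjusted p = 0.494). With the replicate number as a block it was called higher, at 0.29 (edgeR adjusted p = 0.0357). Its level was higher in replicate 1 than in replicate 2 of all 4 groups. E2f3 had 27.5 and 22.6 CPM in WT CD4 and 30.1 and 28.8 CPM in STAT3KO CD4, with no overlap. Its log2 fold change was 0.23 (95% confidence interval -0.050 to 0.52), and it was not called with or without the block. E2f4 (chr8:105297663-105305370, plus strand), the factor of the repressing complexes, had 109.6 and 90.6 CPM in WT CD4 and 113.0 and 93.9 in STAT3KO CD4. Here the groups overlapped and the log2 fold change was 0.047 (95% confidence interval -0.36 to 0.45).

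The atypical repressors E2f7 (chr10:110745439-110787384, plus strand) and E2f8 (chr7:48866429-48881596, minus strand) had their lowest levels in WT CD4. E2f7 had 11.4 and 7.04 CPM in WT CD4 and 18.8 and 15.9 CPM in STAT3KO CD4. Its log2 fold change was 0.91 (SE 0.23, edgeR adjusted p = 0.0433). This call was close to the threshold: without WT CD4 replicate 2 the log2 fold change was 0.61 and the adjusted p 0.148, and limma on log2(RPKM + 1) gave an adjusted p of 0.0629. E2f8 had 30.9 and 14.5 CPM in WT CD4 and 51.6 and 40.8 CPM in STAT3KO CD4. All STAT3KO values were above all WT values, but the WT libraries differed from each other by more than the STAT3KO libraries did. Its log2 fold change of 1.03 (SE 0.36) was the largest of any member and was not called (edgeR adjusted p = 0.11), whereas with the replicate block it was 1.08 and called (edgeR adjusted p = 0.00133). The summed RPKM of E2f7 and E2f8 stood at 0.290 and 0.205 of the summed RPKM of E2f1, E2f2 and E2f3 in WT CD4, and at 0.415 and 0.384 in STAT3KO CD4.

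The count of members called in CD4 was 6 with the replicate block (5 higher and 1 lower), where 16.5% of all genes were called higher and 13.7% lower. Left out in turn, STAT3KO CD4 replicate 1 and replicate 2 each left 0 members called, WT CD4 replicate 2 left 1 (E2f1), STAT3KO CD8 replicate 1 or 2 left 2, and WT CD4 replicate 1 left 4, all higher (E2f1, E2f7, E2f8 and Rbl1). Each of these fits left 1 library in a group, and the share of all genes called in it is not given. The lost calls therefore cannot be read as particular to the members. The fold changes of the 4 called members kept their direction whichever library was left out. Over all alternatives the adjusted p in CD4 ran from 0.000230 to 0.0732 for E2f1, from 0.00385 to 0.20 for E2f7, from 0.00133 to 0.357 for E2f8, from 0.000342 to 0.221 for Rb1 and from 1.54e-05 to 0.0692 for Rbl1.

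Within the pocket proteins Rb1 and Rbl1 moved in opposite directions in CD4 T cells. Rb1, the retinoblastoma gene (chr14:73195502-73325822, minus strand), had 136.6 and 124.6 CPM in WT CD4 and 87.2 and 65.2 CPM in STAT3KO CD4. It fell by 0.78 on the log2 scale (SE 0.20, edgeR adjusted p = 0.0439), to 58.3% of the WT level. Its call was lost without any one of the 4 CD4 libraries, with log2 fold changes from -1.0 (without STAT3KO CD4 replicate 1) to -0.58 (without STAT3KO CD4 replicate 2). Rbl1 (chr2:157145894-157204534, minus strand) had 86.0 and 83.4 CPM in WT CD4 and 131.1 and 125.7 CPM in STAT3KO CD4. Replicates were close and the groups far apart, and Rbl1 rose by a log2 fold change of 0.60 (SE 0.097, edgeR adjusted p = 0.00859), with adjusted p of 0.0692 and 0.0544 without STAT3KO CD4 replicate 1 and replicate 2 and of 0.0522 without WT CD4 replicate 2. Rbl2 (chr8:91070057-91123844, plus strand) had 212.0 and 218.0 CPM in WT CD4 and 194.4 and 196.8 CPM in STAT3KO CD4, with no overlap and a log2 fold change of -0.14 (95% confidence interval -0.35 to 0.080) that was not called.

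The order of Rb1 and Rbl1 in RPKM was reversed between WT CD4 and the other groups. The ratio of Rbl1 to Rb1 was 0.541 and 0.576 in WT CD4 against 1.29 and 1.66 in STAT3KO CD4. The CD8 libraries had ratios of 1.63 and 2.09 (WT) and of 1.63 and 1.91 (STAT3KO). Rb1 made up 33.2% and 31.0% of the summed RPKM of the pocket protein genes in WT CD4 against 22.7% and 18.1% in STAT3KO CD4, and 13.1% to 20.5% in the CD8 libraries. The sum itself varied less, from 75.2 RPKM in STAT3KO CD4 replicate 2 to 94.2 RPKM in WT CD8 replicate 1.

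**Figure D2:**
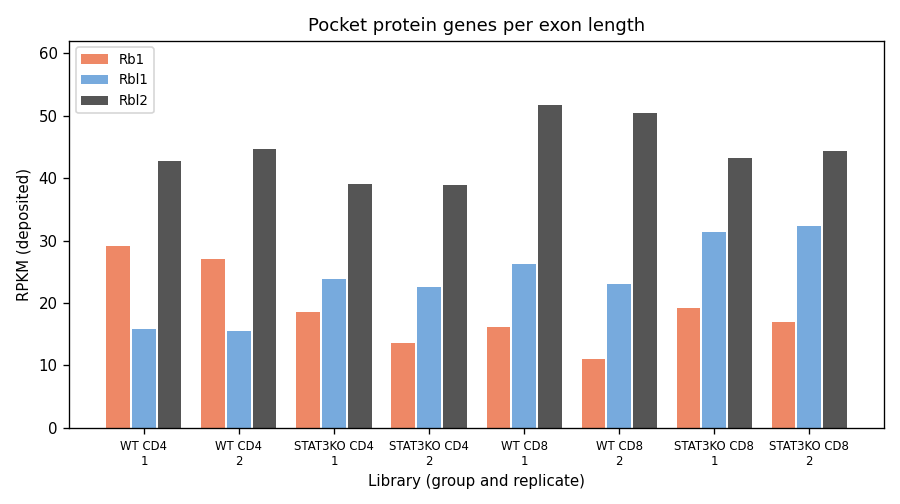
Deposited RPKM (vertical axis, from 0) of Rb1, Rbl1 and Rbl2 in each of the 8 libraries (horizontal axis, group and replicate). Rb1 stood above Rbl1 in both WT CD4 libraries and below it in the other 6.

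In the GENCODE M21 annotation of mm10, exons of Rb1 share 513 bases with exons of Lpar6 and Rcbtb2 on the opposite strand. The counting used RefSeq models, in which Rb1 has 4656 exon bases against 6015 in GENCODE, so part of the shared bases may lie outside the counted gene. The study's methods name a stranded kit and the labels another, and the strand setting of the counting was not stated; whether shared reads entered the count of Rb1 was not tested. Both neighbours went the opposite way to Rb1 in CD4: Lpar6, a lysophosphatidic acid receptor gene inside Rb1, had 24.3 and 17.2 CPM in WT and 40.9 and 37.1 CPM in STAT3KO (log2 fold change 0.91, edgeR adjusted p = 0.0145). Rcbtb2 had 46.6 and 40.4 CPM in WT and 87.0 and 81.6 CPM in STAT3KO (log2 fold change 0.95, edgeR adjusted p = 0.00472). In CD8 both had positive log2 fold changes, as Rb1 did: 0.74 for Lpar6 (edgeR adjusted p = 0.0723, and 0.00433 with the replicate block) and 0.58 for Rcbtb2 (edgeR adjusted p = 0.0678, and 0.00156 with the block). The CD4 call of Lpar6 was lost without either STAT3KO CD4 library (adjusted p of 0.0915 and 0.0620). Exons of Rbl2, E2f8 and E2f7 share 1585, 610 and 86 bases with opposite-strand genes, while those of E2f1, E2f2, E2f3, E2f4 and Rbl1 share none. These neighbours were looked at after the values of Rb1 were seen.

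In CD8 T cells 0 of the 9 members were called between STAT3KO and WT by edgeR, 1 had an unadjusted p under 0.05 (Rbl1), and DESeq2 called 1 (Rbl1). Over all genes edgeR called 1.34% higher and 0.732% lower, 19.3% had an unadjusted p under 0.05 and DESeq2 called 7.12%. Rb1 had 75.1 and 52.3 CPM in WT CD8 and 90.3 and 80.6 CPM in STAT3KO CD8, and Rbl1 142.4 and 127.2 CPM in WT CD8 and 171.2 and 178.9 CPM in STAT3KO CD8. For both genes the STAT3KO libraries were the higher ones, without overlap. The log2 fold change of Rb1 was 0.42 (SE 0.20, edgeR adjusted p = 0.296) and that of Rbl1 0.38 (SE 0.096, edgeR adjusted p = 0.0909). With the replicate block 2 members were called higher, Rb1 (0.44, edgeR adjusted p = 0.0174) and Rbl1 (0.38, edgeR adjusted p = 0.0102), where 10.3% of all genes were called higher.

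Rbl2 had 255.1 and 252.3 CPM in WT CD8 and 214.1 and 223.6 CPM in STAT3KO CD8, lower without overlap, and its log2 fold change was -0.21 (95% confidence interval -0.43 to 0.0025). These were the 3 members whose CD8 groups did not overlap, against 49.7% of all genes. E2f1 had 29.0 and 26.1 CPM in WT CD8 and 26.2 and 24.3 CPM in STAT3KO CD8, and its log2 fold change was -0.12 (95% confidence interval -0.49 to 0.24).

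The 2 genotypes overlapped in CD8 for the remaining members too. E2f7 had 33.5 and 27.7 CPM in WT CD8 and 26.0 and 30.0 CPM in STAT3KO CD8, and its log2 fold change was -0.12 (95% confidence interval -0.63 to 0.38). E2f8 had 104.5 and 64.9 CPM in WT CD8 and 94.6 and 82.2 CPM in STAT3KO CD8 (0.061, -0.73 to 0.85). Replicates of WT CD8 differed more than the 2 genotypes did for both genes. E2f2 had 197.2 and 145.7 CPM in WT CD8 and 182.5 and 153.5 CPM in STAT3KO CD8 (log2 fold change -0.029, 95% confidence interval -0.54 to 0.48). E2f3 had 31.3 and 31.8 CPM in WT CD8 and 29.9 and 31.4 CPM in STAT3KO CD8, and E2f4 145.1 and 110.9 CPM in WT CD8 and 125.9 and 106.2 CPM in STAT3KO CD8. Their log2 fold changes were -0.042 (-0.32 to 0.24) and -0.14 (-0.54 to 0.26).

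**Figure D3:**
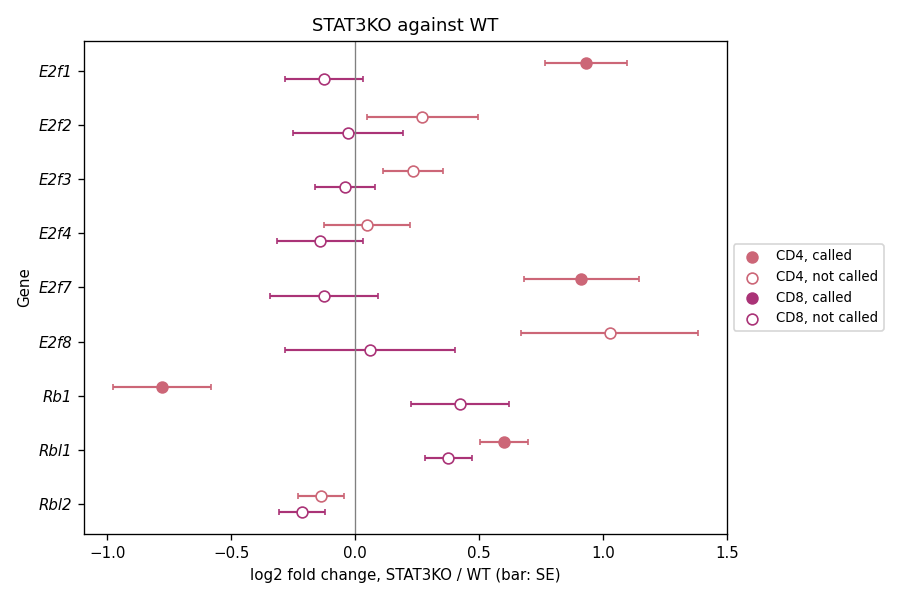
Log2 fold change of each member (vertical axis) between STAT3KO and WT, in CD4 and in CD8 T cells, with bars for the SE and filled points for calls at an adjusted p under 0.05. E2f1, E2f7, E2f8 and Rb1 lay farthest apart between the lineages, at 0.93 against -0.12, 0.91 against -0.12, 1.03 against 0.061 and -0.78 against 0.42.

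The difference of the STAT3KO effect between the lineages was tested itself, as an interaction term. It was called for 0% of all genes by edgeR (1.51% by DESeq2), and 7.9% had an unadjusted p under 0.05. Of the 9 members 0 were called and 3 had an unadjusted p under 0.05. These were Rb1, with a difference (CD8 minus CD4) of 1.20 on the log2 scale (SE 0.28, edgeR adjusted p = 0.268), E2f1 with -1.06 (SE 0.23, edgeR adjusted p = 0.230) and E2f7 with -1.04 (SE 0.32, edgeR adjusted p = 0.397). E2f8 had a difference of -0.97 (SE 0.49, edgeR adjusted p = 0.719). With the replicate block 3.24% of all genes and 2 members were called, Rb1 at 1.23 (edgeR adjusted p = 0.00430) and E2f1 at -1.07 (edgeR adjusted p = 0.0136), and DESeq2 without the block called the same 2 members. With the block E2f7 and E2f8 had an adjusted p of 0.0501 and 0.0575. Over all alternatives that of Rb1 ran from 0.00430 to 0.649 and that of E2f1 from 0.0136 to 0.635. For Rbl1 the difference was -0.22 (95% confidence interval -0.54 to 0.092), and for Rbl2 -0.077 (-0.38 to 0.23).

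Between the lineages from WT donors 5 members were called. In CD8 against CD4 T cells E2f1 was higher by 1.54 (SE 0.17, edgeR adjusted p = 0.000662), E2f7 by 1.73 (SE 0.23, edgeR adjusted p = 0.00164), E2f8 by 1.90 (SE 0.36, edgeR adjusted p = 0.00767) and Rbl1 by 0.67 (SE 0.097, edgeR adjusted p = 0.00230), all on the log2 scale. Rb1 was lower, with a log2 fold change of -1.04 (SE 0.20, edgeR adjusted p = 0.00811). Over all genes 12.2% were called higher and 11.6% lower in WT CD8. This comparison uses the same WT CD4 libraries as the one between genotypes in CD4, so that the values of the 2 are not independent. Both libraries of WT CD8 lay above both of WT CD4 for the atypical pair, and the lower E2f8 value in WT CD8, 64.9 CPM, was above the higher one in WT CD4, 30.9 CPM. For the other 4 members the log2 fold changes were 0.66 for E2f2, 0.33 for E2f3, 0.35 for E2f4 and 0.24 for Rbl2. The groups did not overlap for any of the 9 members, nor for 59.3% of all genes. With the replicate block all 9 were called (8 higher and Rb1 lower), where 20.6% of all genes were called higher and 21.5% lower.

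For STAT3KO donors the log2 fold changes between CD8 and CD4 were 0.49 for E2f1 (SE 0.16, edgeR adjusted p = 0.0925), 0.69 for E2f7 (SE 0.22, edgeR adjusted p = 0.0849) and 0.94 for E2f8 (SE 0.35, edgeR adjusted p = 0.127). Rbl1 was the 1 member called, higher by 0.45 (SE 0.096, edgeR adjusted p = 0.0234). Over all genes 5.84% were called higher and 6.67% lower. Rb1 had a log2 fold change of 0.17 (95% confidence interval -0.29 to 0.62), and its CD8 and CD4 libraries overlapped. With the replicate block 5 members were called higher (E2f1, E2f2, E2f7, E2f8 and Rbl1), where 14.4% of all genes were. The share of all genes called is not given for the fits without 1 library that follow. Without either STAT3KO CD4 library or either STAT3KO CD8 library 0 members were called, with a log2 fold change of Rbl1 between 0.42 and 0.48, and without WT CD4 replicate 1 or replicate 2, libraries outside the comparison, 4 were.

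**Figure D4:**
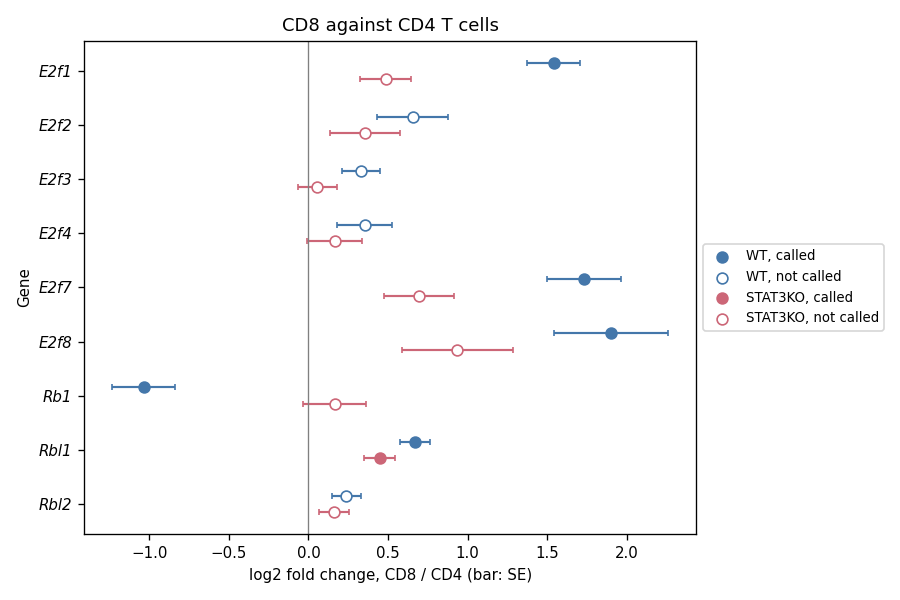
Log2 fold change of each member (vertical axis) between CD8 and CD4 T cells, from WT and from STAT3KO donors, with bars for the SE and filled points for calls at an adjusted p under 0.05. E2f1, E2f7 and E2f8 stood at 1.54, 1.73 and 1.90 in WT and at 0.49, 0.69 and 0.94 in STAT3KO, and Rb1 at -1.04 and 0.17.

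Of the other family genes, the repressors E2f5 and E2f6 and the DP genes Tfdp1 and Tfdp2, edgeR and DESeq2 called 0 of 4 between genotypes in either lineage, and 1 had an unadjusted p under 0.05 (E2f5 in CD4, against 27.5% of all genes). E2f5 (chr3:14578671-14606309, plus strand) had 10.9 and 10.1 CPM in WT CD4 against 7.90 and 7.81 CPM in STAT3KO CD4, and in CD8 T cells 6.92 and 6.74 CPM (WT) against 7.86 and 7.13 CPM (STAT3KO). WT CD4 was the highest group without overlap, as for Rb1. Its log2 fold change in CD4 was -0.42 (SE 0.15, edgeR adjusted p = 0.122) and was called lower with the replicate block (edgeR adjusted p = 0.0472). Among cells of WT donors E2f5 was lower in CD8 than in CD4, with a log2 fold change of -0.62 (edgeR adjusted p = 0.0218), and this call was lost without any one of the 4 WT libraries (adjusted p from 0.0531 to 0.0978). E2f6 lay between 14.1 and 19.1 CPM, Tfdp1 between 49.9 and 79.6 CPM and Tfdp2 between 27.4 and 32.9 CPM over the 8 libraries. Their log2 fold changes between genotypes lay between -0.12 and 0.22.

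The list of MuvB subunits and their partners (Lin9, Lin37, Lin52, Lin54, Rbbp4, Mybl2, Foxm1 and Myb) covers the complex that works with E2f4 and pocket proteins in resting cells and with Mybl2 and Foxm1 in dividing ones. In CD4 2 of 8 were called, both higher in STAT3KO, where 6.54% of all genes were called higher and 5.08% lower. With the replicate block 3 were called higher, adding Lin54 (0.46, edgeR adjusted p = 0.0144), where 16.5% of all genes were. Foxm1, the factor of late cell cycle genes, rose by 1.11 (SE 0.27, edgeR adjusted p = 0.0367) from 42.9 and 24.5 CPM to 81.6 and 63.7 CPM. Mybl2 (B-Myb) rose by 0.56 (SE 0.11, edgeR adjusted p = 0.0192) from 12.9 and 13.5 CPM to 20.1 and 18.9 CPM. Both calls were lost without WT CD4 replicate 2, STAT3KO CD4 replicate 1 or STAT3KO CD4 replicate 2 (adjusted p from 0.0868 to 0.181 for Foxm1 and from 0.0709 to 0.120 for Mybl2), that of Mybl2 also without WT CD4 replicate 1 (0.0671) and that of Foxm1 without either STAT3KO CD8 library (0.0683 and 0.0643). In CD8 edgeR and DESeq2 called 0 of 8, and the 1 gene with an unadjusted p under 0.05 was Lin54, at 0.47 (edgeR adjusted p = 0.114, and 0.0180 with the replicate block).

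Most genes of a list of known E2F targets rose in CD4. Of 36 E2F target genes of G1 and S phase 27 were called higher in STAT3KO CD4 and 0 lower, and all 36 had a positive log2 fold change with a median of 0.90. Over all genes 6.54% were called higher and 5.08% lower, with a median of 0.017. Ccna2 (cyclin A2) rose from 107 and 78.5 CPM to 237 and 228 CPM, a log2 fold change of 1.33 (SE 0.17, edgeR adjusted p = 0.00364). Cdc6, which licenses replication origins, rose from 14.4 and 9.78 CPM to 28.8 and 29.0 CPM, a log2 fold change of 1.26 (SE 0.22, edgeR adjusted p = 0.0115). Of the 9 genes not called, among them Ccne2, Cdt1, Cdc25a and 3 Mcm genes, 7 were called higher with the replicate block. The block called 16.5% of all genes higher. Without WT CD4 replicate 2 or 1 of the STAT3KO CD4 libraries the count was 13 to 15, and Cdc6 was not called (adjusted p from 0.0530 to 0.0643).

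Of 24 genes of G2 and mitosis, 22 were called higher in STAT3KO CD4, against 6.54% of all genes, and the median log2 fold change was 1.21. With the replicate block all 24 were called higher, against 16.5% of all genes. Nuf2, a kinetochore subunit, rose by 1.53 (SE 0.19, edgeR adjusted p = 0.00325) from 27.1 and 22.6 CPM to 70.6 and 72.6 CPM, and Ttk, the spindle checkpoint kinase, by 1.52 (SE 0.21, edgeR adjusted p = 0.00508) from 15.2 and 10.2 CPM to 37.6 and 35.1 CPM. The E2F letters searched above were found in the promoter windows of 14 of 29 target genes of G1 and S phase with a window (48.3%) and of 1 of 20 genes of G2 and mitosis (5.00%).

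In CD8 0 of the 36 target genes of G1 and S phase were called by edgeR, 12 had an unadjusted p under 0.05 and DESeq2 called 3, against the 19.3% and 7.12% of all genes given above. The median log2 fold change was 0.26, with 32 of 36 values positive. Chek1, a checkpoint kinase of S phase, had the smallest p and went from 28.4 and 19.1 CPM to 45.1 and 43.4 CPM (log2 fold change 0.90, edgeR adjusted p = 0.0520). Of the 24 genes of G2 and mitosis 0 were called by edgeR, 10 had an unadjusted p under 0.05, DESeq2 called 5, and all 24 values were positive with a median of 0.31. Ndc80, a kinetochore subunit, had the smallest p, at 0.52 (edgeR adjusted p = 0.0635). In each list 11 genes were called higher with the block, where 10.3% of all genes were.

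The differences of the effect between the lineages (CD8 minus CD4) had a median of -0.60 over the target genes of G1 and S phase and of -0.93 over the genes of G2 and mitosis, with 0 called by edgeR. An unadjusted p under 0.05 was found for 22 of 36 and 22 of 24, against 7.9% of all genes. DESeq2 called 8 and 10 lower, where it called 1.51% of all genes in either direction. Under the block 16 of 36 and 19 of 24 were called lower, where 3.24% of all genes were called in either direction. For WT donors 33 of 36 and 24 of 24 were called higher in CD8 than in CD4, with medians of 1.36 and 1.73. For STAT3KO donors the counts were 23 of 36 and 17 of 24, with medians of 0.74 and 0.81. The counts for STAT3KO donors were 34 of 36 and 24 of 24 with the replicate block, and 32 and 24 by DESeq2. For WT donors they were 35 of 36 and 24 of 24 with the block. Over all genes 12.2% were called higher in CD8 for WT and 5.84% for STAT3KO, and 20.6% and 14.4% with the block.

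**Figure D5:**
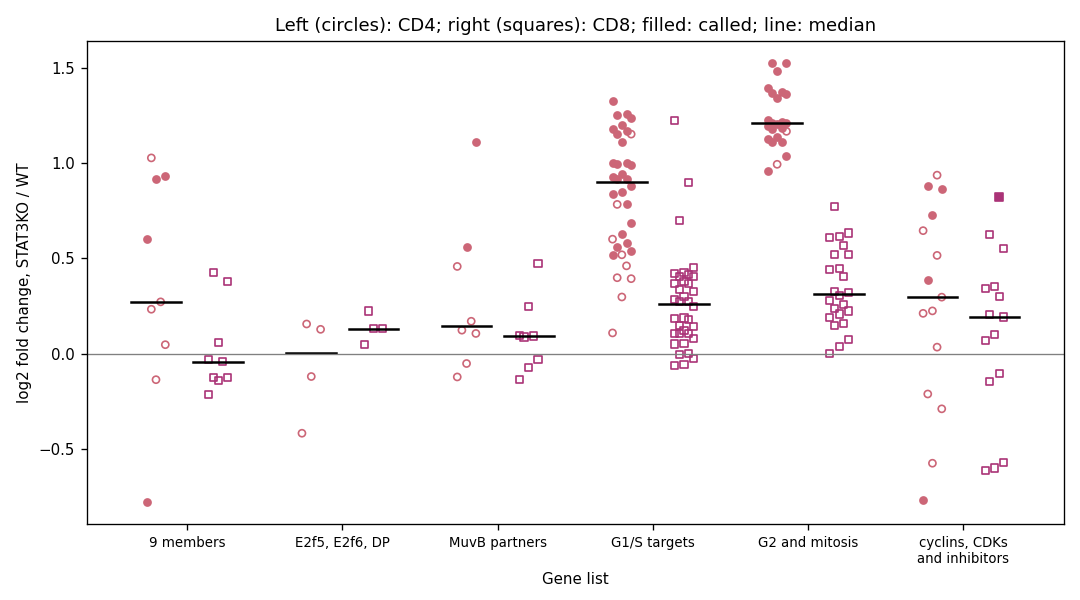
Log2 fold change between STAT3KO and WT (vertical axis) of each gene of 6 lists, with circles for CD4, squares for CD8, filled symbols for calls at an adjusted p under 0.05 and lines for the medians. The medians of the target genes of G1 and S phase were 0.90 in CD4 and 0.26 in CD8, and those of the genes of G2 and mitosis 1.21 and 0.31.

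Upstream of the pocket proteins, D cyclins with Cdk4 and Cdk6 phosphorylate them and the CDK inhibitors hold those kinases back. Of a list of 15 genes, which holds these and also Cdk2, Skp2 and Cks1b, 4 were called higher and 1 lower in STAT3KO CD4. Over all genes 6.54% were called higher and 5.08% lower. The 4 were Ccnd2, Cdkn2c, Cdk2 (log2 fold change 0.39, edgeR adjusted p = 0.0467) and Cks1b. Ccnd2 (cyclin D2) rose from 189 and 138 CPM to 308 and 292 CPM, a log2 fold change of 0.88 (SE 0.15, edgeR adjusted p = 0.0117). It was also the 1 gene of the list called in CD8, higher by 0.82 (SE 0.15, edgeR adjusted p = 0.0452), from 92.1 and 93.8 CPM to 174 and 154 CPM. Of the inhibitors of Cdk4 and Cdk6, Cdkn2c (p18) rose in CD4 by 0.86 (edgeR adjusted p = 0.0186) and Cdkn2d (p19) had a log2 fold change of -0.77 (edgeR adjusted p = 0.0426), from 78.5 and 107 CPM down to 48.6 and 60.7 CPM. In CD8 their values were 0.34 and -0.61, neither of them called, and called higher and lower with the replicate block. The block called 6 genes of the list higher and 2 lower in CD4, adding Skp2 and Cdkn2a (higher) and Cdk6 (lower). It called 16.5% of all genes higher and 13.7% lower there. In CD8 the block called 4 higher and 2 lower, where 10.3% of all genes were called higher and 7.89% lower. Cdk6 had a log2 fold change of -0.57 in both lineages, with an edgeR adjusted p of 0.0513 (0.00760 with the block) in CD4 and of 0.102 (0.0146 with the block) in CD8. Cdkn1b (p27) had 0.35 in CD8 (edgeR adjusted p = 0.132, and 0.0125 with the block). The call of Ccnd2 in CD8 was lost without any one of the 4 CD8 libraries or either STAT3KO CD4 library (adjusted p from 0.0919 to 0.236), and in CD4 those of Ccnd2, Cdkn2c and Cdkn2d were lost without either STAT3KO CD4 library (from 0.0582 to 0.220). Those of Cdkn2c and Cdkn2d were also lost without WT CD4 replicate 2 (0.0920 and 0.192), and that of Cdkn2d without either STAT3KO CD8 library (0.0632 and 0.0663). The list's median log2 fold change was 0.30 in CD4 and 0.19 in CD8.

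The genes nearest to each member in pattern were found by the root mean square difference of centred log2 CPM over the 8 libraries, among 8749 candidates. These distances describe 8 libraries that share their groups and depth, and no test was made. For the atypical pair the nearest genes were Gtse1 (0.084) and Wdr62 (0.095) for E2f7, and Cdc20 (0.093) and Plk1 (0.11) for E2f8. For E2f1 they were Cmtm7 (0.12) and Mcm3 (0.13), and for Rbl1 Selenoi (0.056) and Rfwd3 (0.061). E2f2 was nearest to Rps6ka1 (0.044) and Map4 (0.052), E2f3 to Polm (0.040) and Kdm4a (0.047), E2f4 to Eif4h (0.034) and Kpnb1 (0.038), and Rbl2 to Denr (0.032) and Myl12a (0.036). Rb1 had the most distant neighbours, Otud1 (0.17) and Gpcpd1 (0.18).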

How the data were processed

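The authors deposited 2 tables with a value for each RefSeq gene in each of 8 libraries. The deposited raw counts were made by the authors with STAR (alignment to mm10) and HTSeq-count from single-end reads, and the RPKM values deposited by the authors relate reads to total exon length and library size. The strand setting of the counting is not given in the sources used here, and the study's methods and the labels name different library kits. From the counts, TMM-scaled CPM and edgeR's quasi-likelihood test were computed (edgeR 4.0.16 in R 4.3.3) in 1 fit of all 8 libraries, after filterByExpr with a minimum count of 10, with Benjamini-Hochberg adjustment over 12428 genes. Intervals of fold changes use the 95% level. Each group has n = 2, so both values are given in place of an SD.

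Alternatives were DESeq2 1.42.0, DESeq2's size factors or total counts as scaling, no low-count filter, the replicate number as a block, limma 3.58.1 on log2(RPKM + 1) or log2(RPKM + 0.1), the 2 groups compared alone, and each library left out. The replicate numbers come from the labels. Deviations from the group means correlated between groups at r = 0.42 to 0.67 over 6 pairs of groups, so the numbers were taken to pair the samples. The main fit left this pairing out, and only the fit with the block took it in. In CD4 the main fit called 6.54% of all genes higher, and the fit with the block 16.5%. A gene not called by the main fit may therefore be called once the pairing is used. Blocked values are given beside many of the results they change, but not beside all. For fits with a library left out, the share of all genes called is not given. The fits were tested on simulated counts with known changes. These counts had the same dispersion for all genes and no difference shared by replicates, so the handling of the pairing was not tested.

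The members and gene lists were chosen with earlier results of these data known. Named genes are all members, E2f5, E2f6, Tfdp1 and Tfdp2, the lineage and Stat3 checks, from each list the 2 highest and 2 lowest called per comparison between genotypes (or the smallest p where none was called), and the 2 genes nearest each member in pattern whose mean log2 CPM was 3 or more. Lpar6, Rcbtb2, Ccne2, Cdt1, Cdc25a, Cd79b, Skp2, Cdkn2a, Cdk2, Cks1b, Cdk6 and Cdkn1b were added after their values were seen.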

Additional observations from a re-analysis of the deposited data

Results flagged for a closer look

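Rb1 was flagged because both STAT3KO libraries lay below both WT libraries in CD4 and above both in CD8. Over all genes the genotypes did not overlap for 53.5% in CD4 and 49.7% in CD8. The share of all genes that did so in opposite directions is not given, so the pattern cannot be called rare. The difference of the log2 effects (CD8 minus CD4) was 1.20, with an edgeR adjusted p of 0.268, and of 0.00430 with the replicate block. E2f5 showed the same pattern, with a difference of 0.55, an edgeR adjusted p of 0.564 and of 0.196 with the block. For both genes WT CD4 held the highest libraries.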

How the results depend on the processing

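Of the log2 fold changes of the 9 members in the 5 comparisons under each alternative, 640 kept their direction and side of the threshold, 36 became called, 25 lost their call and 10 changed sign. The cause was not tested. In CD4 DESeq2 called 5 members (4 higher and 1 lower), and the replicate block called 5 higher and 1 lower. Between lineages in WT DESeq2 called 6 members (5 higher and 1 lower). Members called were 4 in CD4 (0 to 4 without 1 library), 0 in CD8 (1 by DESeq2, 2 with the replicate block), 0 for the difference of the effects (2 by DESeq2, 2 with the block), 5 between lineages in WT (9 with the block) and 1 in STAT3KO (3 by DESeq2, 2 with no filter, 5 with the block, 4 with the 2 groups alone, 0 to 4 without 1 library). Target genes of G1 and S phase called were 27 in CD4 (13 to 28 without 1 library) and 0 in CD8 (3 by DESeq2, 1 by total counts, 2 with no filter, 11 with the block, 0 to 1 without 1 library), and genes of G2 and mitosis 0 in CD8 (5 by DESeq2, 1 with no filter, 11 with the block). Without 1 library, E2f4 ranged from -0.092 to 0.19 in CD4, from -0.32 to 0.065 in CD8 and from -0.37 to 0.018 for the difference, E2f2 in CD8 from -0.23 to 0.21, E2f7 in CD8 from -0.25 to 0.020, E2f8 in CD8 from -0.24 to 0.44, and Rb1 between lineages in STAT3KO from -0.030 to 0.39. Scaling moved the median of all genes by under 0.05. The lowest count of a member was 149 (E2f7), and what depth alone limits was not tested.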
